A study of Cavia porcellus with 10 samples.

Results

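The genes described here are those of the mitochondrial ribosomal proteins, taken as every line of the scleral count table whose symbol starts with MRPL or MRPS followed directly by a digit, in any mix of upper and lower case. Of 17642 lines with a gene symbol, 78 met this rule, each symbol stood on 1 line, and all 78 had enough reads to be tested. The libraries were made from the sclera, the tough collagen coat of the eyeball, of male guinea pigs aged 2 to 3 weeks. Animals of the myopia group wore lenses over both eyes, a standard way to induce nearsighted growth of the eye, and animals of the control group were left untreated. There were 5 libraries in either group, made from single eyes. Strain, lens power, time of wear and which eyes came from the same animal were not stated in the labels, and each p-value therefore weighs the groups against the spread of these eyes only.

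Mitochondria keep a ribosome of their own, which translates the few proteins encoded on mitochondrial DNA, all of them subunits of the respiratory chain and the ATP synthase. Its ribosomal RNAs come from mitochondrial DNA, whereas its proteins are encoded in the nucleus, made in the cytosol and imported. Some belong to families shared with bacterial ribosomes and others are specific to mitochondria, and inherited defects in several of them cause combined deficiency of the respiratory chain in children. By the place of each protein in the mammalian mitoribosome, 51 of the 78 genes encode proteins of the large subunit, which forms peptide bonds, and 26 of the small subunit, which reads the messenger RNA. MRPS30 and MRPS18A are among the 51, since their products sit in the large subunit whatever their symbols say. The last gene, MRPS36, carries the name but encodes a protein of the 2-oxoglutarate dehydrogenase complex of the citric acid cycle.

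Libraries held 32309258 to 35430797 counts in total. Levels are given as CPM, a gene's reads per 1000000 reads of the library after its total was scaled with a TMM factor. These factors ran from 0.777 to 0.968 over the controls and from 1.11 to 1.25 over the myopia libraries. Myopia libraries thus carried larger factors than every control library, and all directions below are relative to that scale. Together, 10 markers of scleral fibroblasts held 14.6% to 16.3% of gene counts in control and 11.1% to 13.2% in myopia. On the TMM scale 7 of them had lower and 3 higher levels in myopia, and their tests are given below. Among them was COL1A1, a chain of the collagen that makes up most of the tissue. Its mean and SD were 82730 ± 9358 CPM over the 5 controls and 35550 ± 3273 CPM over the 5 myopia libraries. The control libraries were not uniform, and control libraries 4 and 5 stood nearer to myopia than the other three in most of the genes described here. In tissue libraries of this kind, fewer cells of a type and less RNA per cell cannot be told apart.

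Most of the mitoribosomal genes were lower in the myopic sclera. With edgeR's quasi-likelihood test, adjusted after Benjamini and Hochberg over all 14683 genes tested, 55 of 78 were lower at an adjusted p of 0.05, 7 were higher and 16 did not pass. Among all genes tested 35.1% were lower and 36.9% higher, 71.9% in all, and 28.1% did not pass. Of the members 67 lay below 0 and 11 above, while 49% of all genes lay below 0. The 78 genes had a median log2 fold change of -0.69, with the middle 50% of them between -1.08 and -0.19, while the median of all genes was 0.03. A fall to less than 50% of the control level (log2 fold change of -1 or lower, past the test) was seen in 21 members, where 12.6% of all genes fell that far, and a rise of at least 2-fold in 1, where 19.6% of all genes did. For 49 of the 55 lower members every myopia library lay below every control library, a pattern found in 28% of all genes, and for 5 of the 7 higher members every myopia library lay above, as in 29.8% of all genes. None of the 16 others separated the groups (0 of 16).

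**Figure D1:**
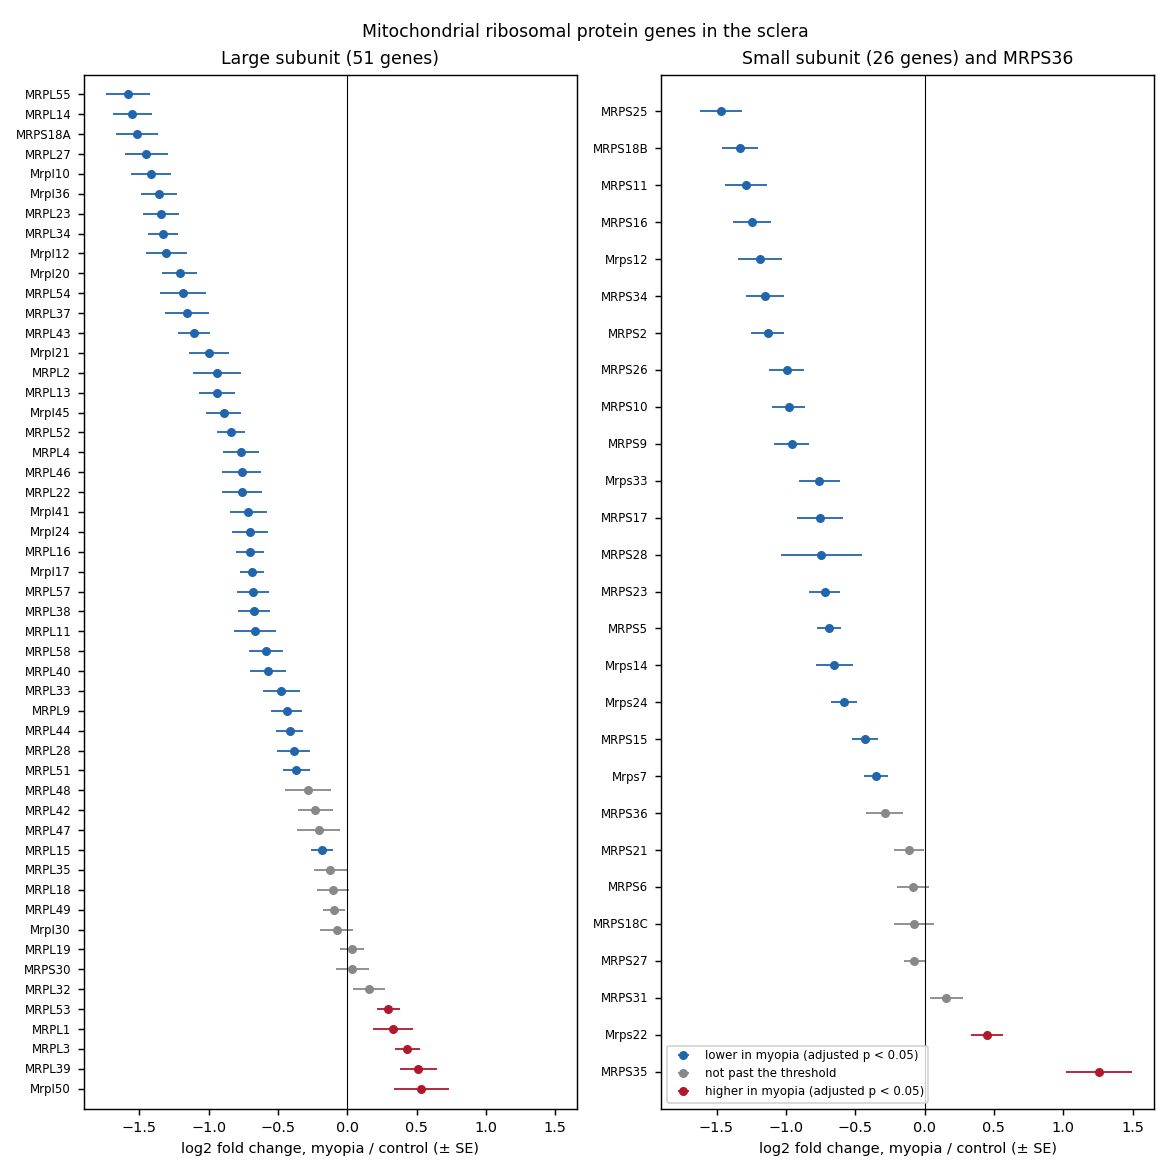
Log2 fold change (myopia over control, x axis) of each of the 78 genes with its standard error (bars), large subunit on the left, small subunit with MRPS36 on the right; colour gives the call at an adjusted p of 0.05. The points run from MRPL55 at -1.58 to MRPS35 at 1.26, with 55 lower, 16 not past the threshold and 7 higher. MRPS35 stands apart from the next highest gene, Mrpl50 at 0.53. Scaling by library totals moves every point to the right by about the shift of the median of all genes, from 0.03 to 0.48. It turns the sign of 19 members.

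This count depended on the scale. When libraries were scaled by their totals alone the median of all genes moved from 0.03 to 0.48, and 18.7% of all genes were then lower and 52% higher. On that scale 35 of the 78 members were lower, 20 were higher, and their median was -0.23. The members' median minus that of all genes was -0.72 with TMM factors and -0.71 with library totals, and 67 of 78 members lay below the median of all genes on both scales. A change of factors moves every gene by about the same amount, so these values could hardly differ between the scales. They cannot show which scale is right. Without control libraries 4 and 5, 56 members were lower and 7 higher, against 34.7% and 38.3% of all genes.

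The large and small subunits had similar counts. Of 51 large subunit genes 36 were lower, 5 higher and 10 not past the threshold, with a median log2 fold change of -0.68. Of 26 small subunit genes 19 were lower, 2 higher and 5 not past the threshold, with a median of -0.73. Proteins of bacterial families and mitochondria-specific proteins were both represented among the lower genes: 35 of 46 genes of bacterial families were lower and 2 higher (median -0.70), and 20 of 31 mitochondria-specific genes were lower and 5 higher (median -0.67). Among the 16 small subunit genes of bacterial families 13 were lower and 0 higher, the other 3 not passing. With library totals that class had 7 lower and 3 higher genes, all genes of bacterial families 22 and 11, the mitochondria-specific genes 13 and 9, the large subunit 23 and 13 and the small subunit 12 and 7. Over all genes the shares were 35.1% lower and 36.9% higher with TMM factors, and 18.7% and 52% with library totals. These are counts beside each other, and no difference between the classes was tested.

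Summed over all 78 genes, the level was 3302, 3253, 3091, 2643 and 2368 CPM in control libraries 1 to 5 and 1673, 1866, 1912, 1696 and 1865 CPM in myopia libraries 1 to 5. All myopia libraries were thus below all control libraries, and control libraries 4 and 5 were the lowest of their group. As a share of all gene counts, with no scaling factor, the members took 0.229% to 0.265% in control and 0.194% to 0.221% in myopia, so the groups did not overlap there either, although the gap between the nearest libraries was narrow. The mean log2 level of the large subunit genes relative to their control mean was 0.15, 0.13, 0.07, -0.10 and -0.25 in control libraries 1 to 5 and -0.71, -0.51, -0.51, -0.71 and -0.55 in myopia libraries 1 to 5. For the small subunit it was 0.12, 0.12, 0.07, -0.07 and -0.23 in control and -0.66, -0.58, -0.46, -0.67 and -0.57 in myopia. Both subunits thus moved together from library to library. The ratio of summed CPM of the large to the small subunit was 2.31 ± 0.05 in control and 2.16 ± 0.06 in myopia (mean ± SD over 5 libraries), with ranges of 2.23 to 2.35 and 2.10 to 2.24 that overlapped.

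**Figure D2:**
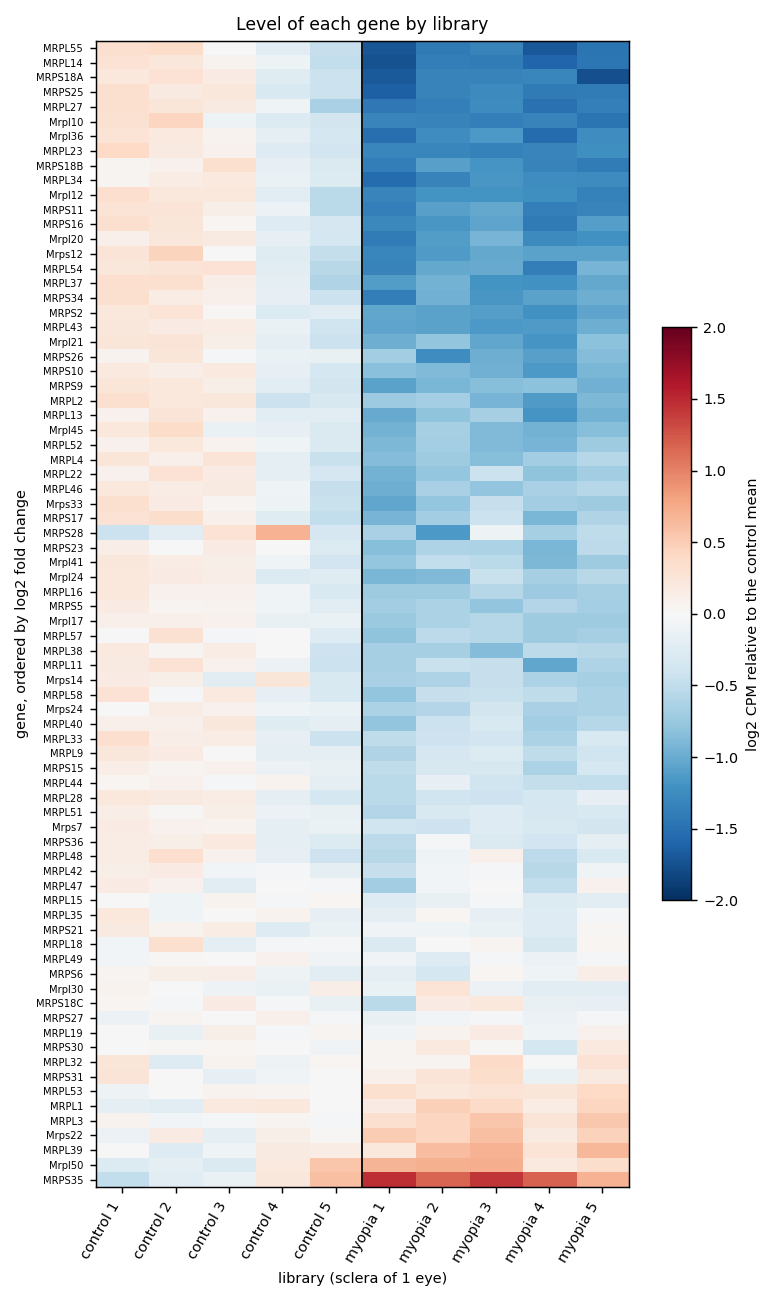
Level of each of the 78 genes (rows, ordered by log2 fold change) in each library (columns), as log2 CPM relative to the control mean of the gene; blue is lower and red higher, and the line divides control from myopia. The upper rows are blue in all 5 myopia libraries, control libraries 4 and 5 are mostly pale blue in the same rows while controls 1 to 3 are mostly pale red, and the lowest rows, MRPS35 among them, are red in myopia.

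On the TMM scale the untreated eyes differed among themselves along the same genes, and related gene groups shared this pattern. The mean log2 level relative to the control mean went from 0.14 in control 1 to -0.24 in control 5 over the members. It went from 0.31 to -0.44 over cytosolic ribosomal proteins, from 0.15 to -0.30 over complex I and from 0.11 to -0.26 over complexes II to V. Biogenesis regulators went the other way, from -0.15 to 0.24. Control 5 was the lowest control library for 54 of 78 members (69.2%), as it was for 31.8% of all genes, and control 1 the highest for 34 (43.6%, against 23.6% of all genes). Both control 4 and control 5 lay below all of controls 1 to 3 for 55 members (70.5%, against 26.9% of all genes), and 50 of these 55 were among the members called lower in myopia. The level in control 5 was a median 0.662 of that in control 1 over the 55 lower members, 0.867 over the 16 that did not pass, and 1.11 over the 7 higher ones. Within myopia, library 4 was the lowest for 33 members and library 1 for 29, where they were the lowest for 26.4% and 17% of all genes, and library 3 was the highest for 39 members (18.5% of all genes). The median coefficient of variation of the members was 16.2% in control and 10.2% in myopia, beside 18.03% and 12.6% over all genes tested. These levels and ranks are on the TMM scale, where factors rose from 0.777 (control 1) to 0.968 (control 5), a rise that lowers CPM. Myopia 4 had the largest factor, 1.25. With no factor, the members took 0.257%, 0.265%, 0.261%, 0.234% and 0.229% of gene counts in controls 1 to 5. That is a smaller relative fall than in summed CPM. In myopia 1 to 5 they took 0.194%, 0.207%, 0.221%, 0.212% and 0.219%, with library 4 not the lowest. The labels do not say what the library numbers follow, and what sets the control libraries apart was not tested.

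The deepest falls in the large subunit were those of MRPL55, MRPL14, MRPS18A, MRPL27, Mrpl10 and Mrpl36, each to between 33.4% and 38.97% of its control level. MRPL55, the mitochondrial member of the bL31 family, stood at 56.6, 58.6, 45.6, 38.6 and 32.8 CPM in control libraries 1 to 5 and at 13.5, 16.7, 17.6, 13.7 and 16.1 CPM in myopia libraries 1 to 5. The lowest control library was still well above the highest myopia library, and the log2 fold change was -1.58 ± 0.16 (SE; edgeR adjusted p = 1.75e-06). MRPL14, which lies on the face of the large subunit that meets the small one, had 91.7, 88.1, 78.96, 69.98 and 53.4 CPM in control and 22.1, 28.4, 28.2, 24.7 and 27.1 CPM in myopia. The control values were spread widely, with control 5 the lowest, while the myopia values lay close together, and the log2 fold change was -1.55 ± 0.14 (edgeR adjusted p = 8.61e-07). MRPL27, whose bacterial counterpart reaches to the peptidyl transferase centre, fell by 1.45 on the log2 scale and Mrpl36, of the bL36 family, by 1.36, again with no overlap between the groups. MRPL23 (-1.34 ± 0.13) and MRPL34 (-1.33 ± 0.11) followed, the latter with the smallest adjusted p of the 78 genes (5.04e-07).

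The stalk of the large subunit, which recruits translation factors, fell in all 3 of its genes measured here. Among all members 70.5% were lower, and among all genes 35.1%. Mrpl12, the stalk protein itself, which has also been described as a partner of the mitochondrial RNA polymerase, stood at 104, 95.5, 94.8, 70.3 and 56.1 CPM in control and 32.4, 35.5, 35.6, 34.9 and 31.8 CPM in myopia. Control libraries 1 to 3 were close to each other, 4 and 5 were lower, and myopia was lower again, with a log2 fold change of -1.30 ± 0.15 (edgeR adjusted p = 4.28e-06). Mrpl10, which anchors the stalk, fell by 1.42, from 56.4 ± 14.01 to 21.1 ± 0.841 CPM (mean ± SD over 5 libraries). MRPL11 at the base of the stalk fell less, by 0.67, and its call ended when libraries were scaled by totals (-0.21).

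Of 5 genes for proteins around the tunnel through which the new peptide leaves, 4 were lower, beside 70.5% of all members and 35.1% of all genes. MRPL23 fell from 85.1 ± 18.7 to 33.5 ± 1.07 CPM. Mrpl45, which holds the ribosome to the inner membrane at the tunnel exit, had 54.99, 61.4, 43.4, 42.2 and 38.7 CPM in control and 24.4, 29.6, 25.4, 24.3 and 25.97 CPM in myopia, a log2 fold change of -0.89 ± 0.13 (edgeR adjusted p = 3.1e-05). MRPL22 and Mrpl24 fell by 0.76 and 0.70, calls that ended with library totals (-0.30 and -0.24). MRPL47, with a log2 fold change of -0.21 ± 0.16 (edgeR adjusted p = 0.251), did not pass, and its value turned to 0.24 with library totals. It stood at 18.4, 17.4, 14.03, 16.5 and 15.99 CPM in control and 9.93, 15.8, 16.5, 11.5 and 17.4 CPM in myopia. Myopia libraries 1 and 4 were below every control, and the other three lay among the controls.

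Among the other lower genes of the large subunit, Mrpl20, MRPL54, MRPL37, MRPL43, Mrpl21, MRPL2, MRPL13, MRPL52, MRPL4 and MRPL46 had log2 fold changes from -1.21 to -0.76, and each was also below 0 with library totals. Smaller falls, from -0.71 to -0.47, were those of Mrpl41, MRPL16, Mrpl17, MRPL57, MRPL38, MRPL58, MRPL40 and MRPL33. MRPL58 is a peptidyl-tRNA hydrolase that frees stalled mitoribosomes and was taken over into the large subunit. It stood at 39.5, 31.9, 37.2, 28.6 and 26.1 CPM in control and 18.6, 23.2, 23.5, 22.6 and 20.7 CPM in myopia, a log2 fold change of -0.59 ± 0.12 (edgeR adjusted p = 0.00075). Every myopia library was below every control library, yet the call of MRPL58 ended with library totals (-0.13), as did those of MRPL57, MRPL38, MRPL40 and MRPL33. MRPL44, which has the fold of an RNase III enzyme and whose loss causes a cardiomyopathy of infancy, had a log2 fold change of -0.42 ± 0.10 (edgeR adjusted p = 0.00189), and MRPL9, MRPL28 and MRPL51 had -0.44, -0.39 and -0.37. With library totals all 4 turned to between 0.02 and 0.09 and did not pass. MRPL15, at -0.18 ± 0.08, was called at an adjusted p of 0.0486 in edgeR and lost the call when any 1 library except myopia 3 was left out, without control libraries 4 and 5 together and under 6 other settings; with library totals it was 0.26 and passed as higher.

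Another 9 genes of the large subunit beside MRPL47 did not pass. MRPL48, MRPL42, MRPL35, MRPL18, MRPL49 and Mrpl30 had log2 fold changes from -0.28 to -0.08 that did not pass, and that turned to between 0.18 and 0.36 with library totals, where MRPL35, MRPL18, MRPL49 and Mrpl30 passed as higher. MRPL48 passed as lower with sample quality weights (-0.38), without control 5 (-0.36) and without control libraries 4 and 5 (-0.45). MRPL49 stood at 28.8, 30.4, 29.8, 31.6 and 28.4 CPM in control and 28.4, 24.7, 29.4, 27.6 and 29.3 CPM in myopia. The ranges of the groups overlapped. MRPL19 (0.03 ± 0.09), MRPS30 (0.04 ± 0.12) and MRPL32 (0.16 ± 0.12) lay near or above 0 and did not pass with TMM factors, but were called higher with library totals (0.48, 0.48 and 0.61). MRPL32 is the mitoribosomal protein that the m-AAA protease of the inner membrane must trim before it can join the subunit. It had 29.1, 20.5, 25.7, 22.6 and 25.1 CPM in control and 25.3, 25.5, 31.9, 24.7 and 29.8 CPM in myopia, with edgeR adjusted p = 0.23.

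Higher in myopia were 5 genes of the large subunit: MRPL3, MRPL39, MRPL53, MRPL1 and Mrpl50. MRPL3, a core protein whose defects cause cardiomyopathy, stood at 25.6, 23.3, 23.6, 25.3 and 23.5 CPM in control and 30.4, 32.7, 36, 29.1 and 35.5 CPM in myopia. The control libraries lay close together, all myopia libraries were above them, and the log2 fold change was 0.43 ± 0.09 (edgeR adjusted p = 0.000606). MRPL39 had 13.97, 11.6, 13.04, 15.8 and 15.3 CPM in control and 16.2, 21.6, 22.8, 16.8 and 22.1 CPM in myopia, a log2 fold change of 0.51 ± 0.13 (edgeR adjusted p = 0.00349) with all myopia libraries above all controls. MRPL53 rose from 22.3 ± 1.05 to 27.4 ± 1.49 CPM. MRPL1, of the L1 stalk through which spent tRNA leaves, was called by a small margin (0.33 ± 0.14, edgeR adjusted p = 0.0494), with overlapping groups. Its call ended with RLE factors, with no filter on low counts, and without control 1, 2 or 5 or myopia 2, 3 or 5, at log2 fold changes of 0.28 to 0.34. Mrpl50 had 5.52, 5.92, 5.46, 7.81 and 10.2 CPM in control and 11.1, 11.4, 11.5, 7.84 and 8.77 CPM in myopia, so that control 5 lay among the myopia libraries. Its log2 fold change of 0.53 ± 0.20 (edgeR adjusted p = 0.0263) did not pass without control 1, 2 or 3 or myopia 1, 2 or 3, with values of 0.46 to 0.50.

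**Figure D3:**
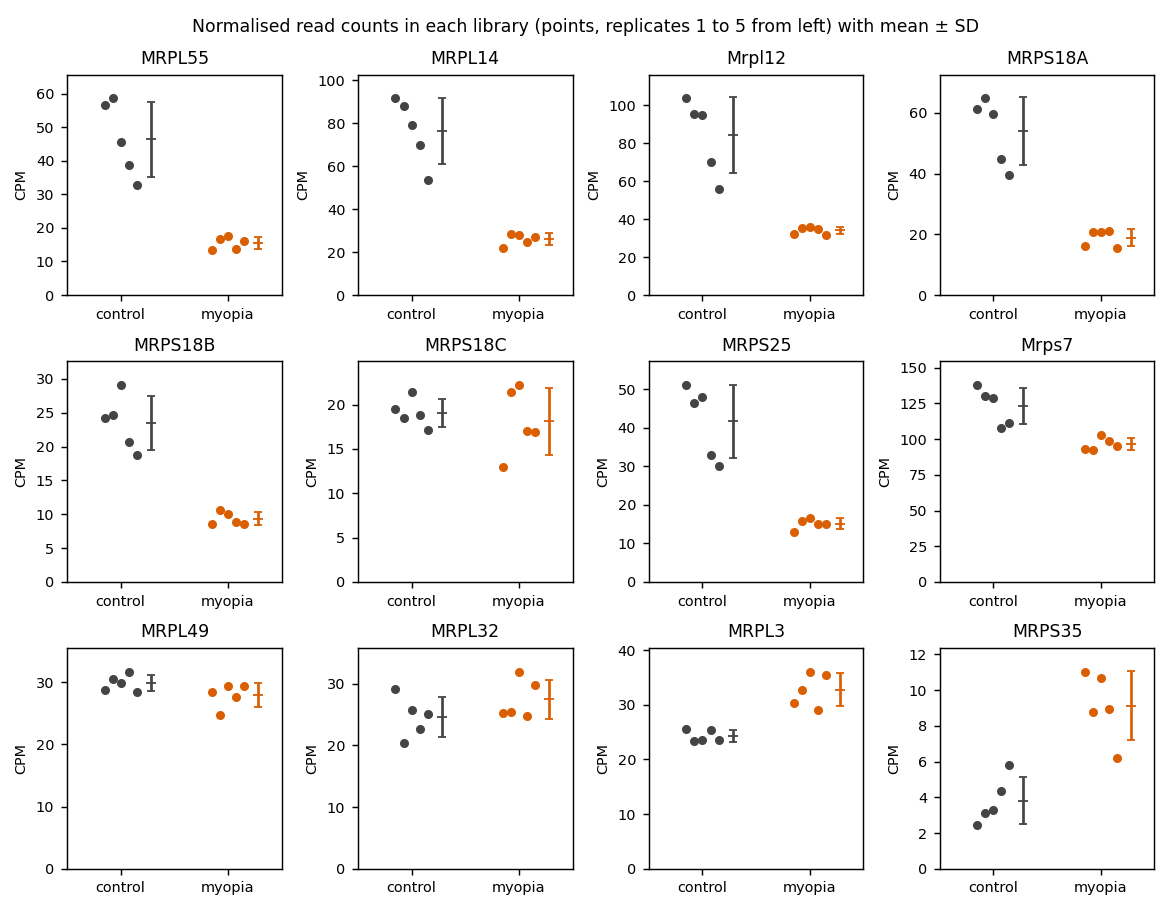
CPM (y axis, from 0) of 12 of the genes in each library, control in grey and myopia in orange, with the mean and SD beside the points. MRPL55, MRPL14, Mrpl12, MRPS18A, MRPS18B, MRPS25 and Mrps7 separate the groups with myopia lower, MRPL3 and MRPS35 separate them with myopia higher, and MRPS18C, MRPL49 and MRPL32 overlap; Mrps7 turns to a log2 fold change of 0.11 with scaling by library totals.

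In the small subunit the deepest falls were those of MRPS25, MRPS18B, MRPS11, MRPS16, Mrps12 and MRPS34. MRPS25 is a mitochondria-specific protein whose defect is known from an encephalomyopathy. It stood at 51.05, 46.4, 47.8, 32.8 and 30.1 CPM in control and 12.8, 15.8, 16.5, 14.9 and 15.1 CPM in myopia. Controls 4 and 5 lay between the other controls and the myopia libraries, which were tight, and the log2 fold change was -1.47 ± 0.15 (edgeR adjusted p = 2.02e-06). Mrps12, the protein of the decoding centre where codon and anticodon are matched, had 32.7, 37.5, 27.6, 22.9 and 19.5 CPM in control and 10.8, 12.2, 13.1, 12.7 and 12.7 CPM in myopia, a log2 fold change of -1.19 ± 0.16 (edgeR adjusted p = 1.98e-05). No myopia library reached the lowest control. MRPS16 and MRPS34, both known from inherited respiratory chain deficiency, fell by 1.25 and 1.15 on the log2 scale, and MRPS11 by 1.29.

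MRPS2, MRPS26, MRPS10 and MRPS9 followed with log2 fold changes from -1.13 to -0.96, and Mrps33, MRPS17, MRPS23, MRPS5, Mrps14 and Mrps24 with -0.76 to -0.58. Of these, Mrps33, MRPS17, Mrps14 and Mrps24 lost the call with library totals (-0.29 to -0.13). Mrps7, which binds the ribosomal RNA of the head of the small subunit, had 138, 130.1, 129, 108 and 111 CPM in control and 93.4, 92.3, 103, 98.9 and 94.9 CPM in myopia. The groups did not overlap, but the log2 fold change of -0.35 ± 0.09 (edgeR adjusted p = 0.00244) turned to 0.11 with library totals, and that of MRPS15 (-0.43 ± 0.09) to 0.02. MRPS28, the bS1 family member, was measured on the fewest reads of the 78 genes, down to 52 in a library. It stood at 2.72, 3.28, 4.81, 6.53 and 2.95 CPM in control and 2.29, 1.47, 3.57, 2.25 and 2.55 CPM in myopia, with overlap, and its log2 fold change of -0.74 ± 0.29 (edgeR adjusted p = 0.0358) ended as a call without control 3 or 4 or myopia 1, 2, 4 or 5 (-0.76 to -0.49), without control libraries 4 and 5 together (-0.56), with upper quartile factors (-0.68) and with library totals (-0.30).

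MRPS21, MRPS6, MRPS18C and MRPS27 had log2 fold changes from -0.11 to -0.07 that did not pass and that turned to between 0.34 and 0.37, past the threshold, with library totals. MRPS21 also passed as lower without control libraries 4 and 5 (-0.23). MRPS31 was at 0.16 ± 0.12 (edgeR adjusted p = 0.24) and was called higher with library totals (0.61). MRPS27, an RNA-binding protein with pentatricopeptide repeats, stood at 37.8, 42.96, 41.1, 44.5 and 40.02 CPM in control and 37.3, 39.9, 40.7, 38.04 and 40.03 CPM in myopia, and the groups overlapped.

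Both genes of the small subunit that rose encode mitochondria-specific proteins. Mrps22, known from inherited respiratory chain deficiency, had 13.4, 16.5, 12.9, 15.8 and 14.8 CPM in control and 21.1, 19.9, 22.4, 16.6 and 20.2 CPM in myopia. Its lowest myopia library was just above its highest control, and the log2 fold change was 0.45 ± 0.11 (edgeR adjusted p = 0.00284). MRPS35 had the largest rise of the 78 genes, with 2.45, 3.1, 3.28, 4.36 and 5.81 CPM in control and 11.02, 8.76, 10.7, 8.92 and 6.19 CPM in myopia. Control 5 came close to myopia 5, the groups did not overlap, and the log2 fold change was 1.26 ± 0.24 (edgeR adjusted p = 0.000327). Under every alternative tried, scalings and single libraries left out included, MRPS35, Mrps22, MRPL3, MRPL39 and MRPL53 passed as higher.

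The S18 family shows how close relatives differed. Mammals have 3 mitochondrial proteins related to bacterial S18, of which MRPS18C and MRPS18B sit in the small subunit and MRPS18A in the large one. In the class counts above, MRPS18A and MRPS18B were nevertheless placed among the mitochondria-specific genes, and only MRPS18C among the bacterial families. MRPS18A stood at 61.2, 64.8, 59.7, 44.9 and 39.4 CPM in control and 16.2, 20.8, 20.8, 21.2 and 15.3 CPM in myopia, a log2 fold change of -1.52 ± 0.15 (edgeR adjusted p = 1.83e-06). MRPS18B had 24.3, 24.7, 29.1, 20.6 and 18.8 CPM in control and 8.6, 10.6, 10.01, 8.92 and 8.51 CPM in myopia, a log2 fold change of -1.33 ± 0.13 (edgeR adjusted p = 1.71e-06). In both the groups were far apart. MRPS18C, with 19.6, 18.5, 21.4, 18.8 and 17.1 CPM in control and 12.9, 21.4, 22.2, 17.1 and 16.9 CPM in myopia, overlapped and had a log2 fold change of -0.08 ± 0.14 (edgeR adjusted p = 0.641) that turned to 0.37 with library totals. A test of the difference between the relatives was not made. MRPS36, the gene that is not ribosomal, had a log2 fold change of -0.29 ± 0.13 (edgeR adjusted p = 0.0656), which passed as lower with DESeq2, with sample quality weights, with 1 surrogate variable, without control 5 or myopia 2, and without control libraries 4 and 5 together, and turned to 0.17 with library totals.

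Another 5 mitoribosomal proteins carry other names and were not chosen by the rule. GADD45GIP1, at the exit of the peptide tunnel, fell from 133 ± 26.7 to 38.4 ± 3.11 CPM, and its log2 fold change (-1.79 ± 0.13) was lower than that of every gene in the MRPL and MRPS series. The small subunit proteins AURKAIP1 and CHCHD1 fell by 1.19 and 0.99 on the log2 scale. PTCD3, a pentatricopeptide repeat protein of the small subunit, rose from 17.7 ± 1.21 to 31.8 ± 1.16 CPM, with a log2 fold change of 0.85 ± 0.09 (edgeR adjusted p = 1.76e-06). DAP3, the GTP-binding protein of the head, was at -0.15 ± 0.14 (edgeR adjusted p = 0.331), did not pass, and turned to 0.31, past the threshold, with library totals; without control libraries 4 and 5 it was -0.30 and passed as lower.

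Genes that build the mitoribosome and work with it moved in both directions. Their counts stand beside 35.1% lower and 36.9% higher among all genes with TMM factors, and 18.7% and 52% with library totals. Of 27 tested assembly factors and rRNA-modifying enzymes 14 were lower and 5 higher, and the median of the list was -0.32 (log2). RPUSD3, a pseudouridine synthase, and MPV17L2, an inner membrane protein needed for assembly, fell by 1.17 and 1.04, while the GTPase GTPBP10, which acts on the maturing large subunit, and METTL15, which methylates the small subunit rRNA, rose by 1.69 and 1.47. On library totals this list had 3 lower and 11 higher genes and a median of 0.13. Of 17 translation factors and mRNA-handling proteins 4 were lower and 10 higher, with a median of 0.56, and with library totals 2 and 13, with a median of 1.01. Tufm, the elongation factor that brings tRNA to the ribosome, fell from 72.5 ± 10.2 to 39.1 ± 1.83 CPM (log2 fold change -0.89 ± 0.10), and SLIRP, which stabilises mitochondrial mRNA together with LRPPRC, fell by 0.81. LRPPRC itself rose from 24.4 ± 2.56 to 37.8 ± 1.48 CPM (0.63 ± 0.09), and the initiation factor MTIF2 from 13.4 ± 1.62 to 30.9 ± 3.11 CPM (1.20 ± 0.11). The partners SLIRP and LRPPRC thus moved in opposite directions with TMM factors. Of 20 tRNA synthetases and amidotransferase subunits of mitochondria 8 were lower (40%) and 5 higher (25%), against 35.1% and 36.9% of all genes, with CARS2 (-1.02) and IARS2 (-0.58) among the former and RARS2 (0.77) among the latter. With library totals the list had 3 lower and 9 higher genes, its median turned from -0.23 to 0.22, and IARS2 did not pass (-0.12).

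Upstream of the mitoribosome, 22 genes for the upkeep and transcription of mitochondrial DNA and for its RNA gave 4 lower and 9 higher calls and a median of 0.24 (log2), the 40.9% of higher genes lying near the 36.9% of all genes. With library totals the list had 3 lower and 15 higher genes and a median of 0.69. POLRMT, the mitochondrial RNA polymerase, fell from 43.05 ± 5.5 to 23.4 ± 1.01 CPM (-0.88 ± 0.10), whereas TFAM, which packages mitochondrial DNA and starts its transcription, rose from 13.8 ± 1.51 to 29.4 ± 3.56 CPM (1.08 ± 0.12). Tbrg4, an RNA-binding protein, fell by 0.85, and PNPT1, which degrades mitochondrial RNA, rose by 1.29. Of 13 regulators of mitochondrial biogenesis 3 were lower and 8 higher, with a median of 1.19, and with library totals 1 and 10, with a median of 1.61. GABPA, one of the nuclear factors that bind promoters of mitochondrial genes, rose from 14.3 ± 3.75 to 46.7 ± 4.43 CPM (1.70 ± 0.16). Its control values were 10.4, 12.4, 12.4, 17.3 and 19.3 CPM and its myopia values 53.6, 44.7, 48.5, 43.8 and 42.8 CPM, without overlap. Nrf1, another such factor, was at -0.06 ± 0.09 (edgeR adjusted p = 0.534) and turned to 0.38 with library totals and 0.01 with upper quartile factors. The coactivator Ppargc1a was scarce, with 0.32, 0.11, 0.48, 0.56 and 1.06 CPM in control and 5.46, 1.69, 2.75, 4.51 and 2.77 CPM in myopia (2.75 ± 0.48), its relative Ppargc1b rose by 1.29, and the nuclear receptor Esrra and MYC fell by 0.69 and 0.75. MYC did not pass with library totals (-0.31).

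**Figure D4:**
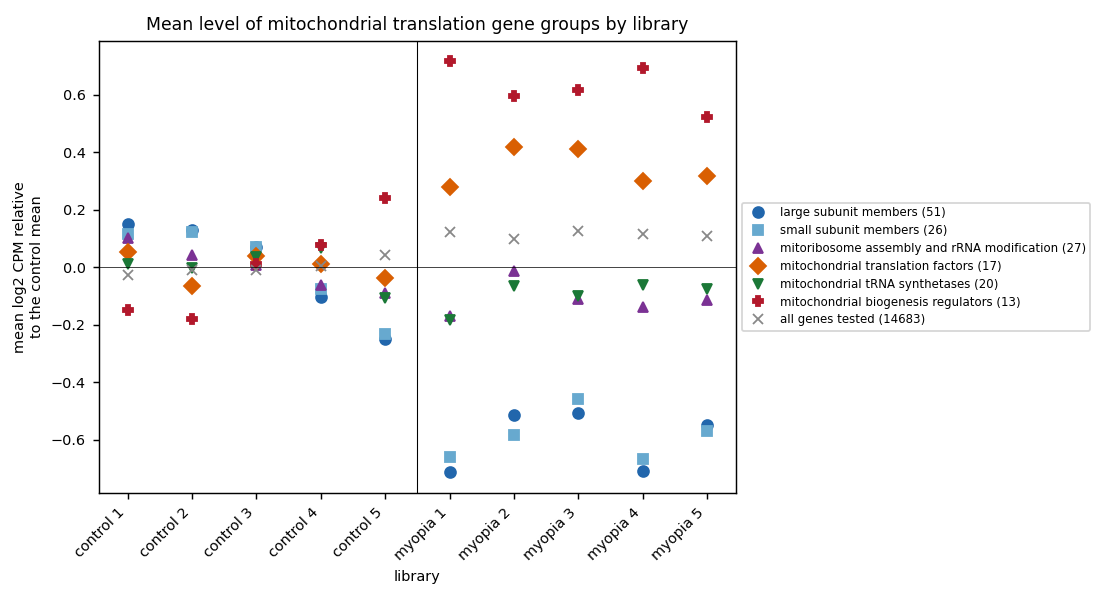
Mean log2 CPM of 6 gene groups and of all genes tested in each library, relative to the control mean (y axis), with the number of genes of each group in brackets. Large and small subunit genes lie between -0.71 and -0.46 in myopia and are lower in control libraries 4 and 5 than in controls 1 to 3, while translation factors and biogenesis regulators lie above 0 in all 5 myopia libraries; all values are on the TMM scale, and on library totals the median log2 fold change of the assembly factors and of the tRNA synthetases turns above 0 (0.13 and 0.22).

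Of 34 genes for protein import and mitochondrial proteases 24 were lower and 6 higher, and the median of the list was -0.70 (log2), beside 35.1% lower and 36.9% higher among all genes. With library totals it had 18 lower and 10 higher genes and a median of -0.25, beside 18.7% lower and 52% higher among all genes. The small chaperones of the intermembrane space TIMM13 and TIMM10 fell by 1.33 and 1.23, and Clpx, the unfolding subunit of a matrix protease, and TIMM21 rose by 1.29 and 1.22. Spg7 and Afg3l2 encode the m-AAA protease that trims MRPL32. Spg7 fell from 99.4 ± 18.1 to 54.6 ± 2.15 CPM (-0.86 ± 0.12), and Afg3l2 had a log2 fold change of -0.31 ± 0.08 that turned to 0.14 with library totals. Of 8 genes often read as a measure of mitochondrial content 3 were lower and 1 higher. The 37.5% of lower genes lay near the 35.1% of all genes. The prohibitins PHB and Phb2 fell by 1.42 and 1.20, Cycs (cytochrome c) rose by 0.49, and the median of the list was -0.18. With library totals this list turned to 2 lower and 5 higher genes and a median of 0.27, beside the same 18.7% and 52% of all genes. The genes of the products of mitoribosomal translation, the 13 proteins encoded on mitochondrial DNA, could not be analysed here. Of the 13, 0 stood in the count table under the symbols looked up.

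**Figure D5:**
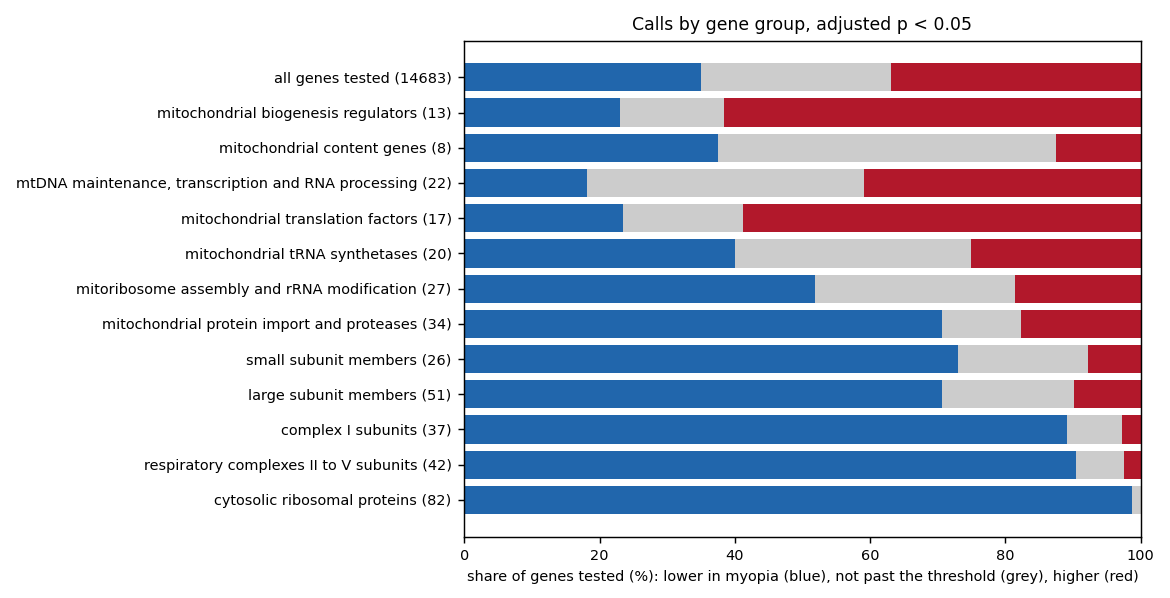
Share of the genes tested in each group (number in brackets) that were lower (blue), not past the threshold (grey) or higher (red) in myopia at an adjusted p of 0.05 with TMM factors. The large and small subunits have 70.6% and 73.1% lower genes, beside 35.1% of all genes. Protein import and proteases also have 70.6%, the assembly factors 51.9% and complex I 89.2%. On library totals 18.7% of all genes are lower.

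Nuclear genes of the respiratory chain, whose products join those made by the mitoribosome, and cytosolic ribosomal proteins gave larger shares of lower calls than the members. Among all genes 35.1% were lower and 36.9% higher with TMM factors, and 18.7% and 52% with library totals. Of 37 complex I subunits 33 were lower and 1 higher (median log2 fold change -0.94), and of 42 subunits of complexes II to V 38 were lower and 1 higher (median -0.87). Of 82 tested cytosolic ribosomal protein genes 81 were lower and 0 higher (median -1.33). With library totals complex I had 23 lower and 3 higher genes (median -0.48), complexes II to V 25 and 4 (median -0.40) and the cytosolic ribosome 77 and 0 (median -0.86). Differences between these groups were not tested.

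Of the marker lists of other cell types, only those of macrophages and red blood cells were called throughout in the same direction. Counts of all lists stand beside 35.1% lower and 36.9% higher among all genes, and 18.7% and 52% with library totals. All 8 macrophage markers were lower in myopia, with a summed level of 1186 to 1920 CPM in control and 334 to 503 CPM in myopia. All 4 red blood cell markers were lower (2504 to 10560 against 100.1 to 456 CPM). Both counts were the same with library totals and without control libraries 4 and 5. Of 10 skeletal muscle markers, a tissue rich in mitochondria, 5 were lower and 1 higher, and the summed levels overlapped (2606 to 6684 against 1661 to 4067 CPM). Only 1 muscle marker was lower and 1 higher with library totals, and likewise without control libraries 4 and 5. Of 10 scleral fibroblast markers 5 were lower and 2 higher (154900 to 201900 against 88480 to 119100 CPM), and with library totals 4 and 4, the median of the list turning from -0.35 to 0.10. Photoreceptor markers were lower in 4 of 7 cases, in 2 with library totals and in 1 without control libraries 4 and 5 (221 to 372 against 51.7 to 217 CPM). Those of pigment epithelium and melanocytes were lower in 3 of 9 and higher in 2, with library totals in 1 and 2, and without control libraries 4 and 5 in 3 and 1. Their sums overlapped (151 to 438 against 53.03 to 232 CPM). Endothelial markers had 1 lower and 2 higher of 5 (0 and 3 with library totals, 1 and 3 without control libraries 4 and 5), with overlapping sums (852 to 1049 against 677 to 1043 CPM). Schwann cell markers had 3 lower and 1 higher of 5 (1 and 2 with library totals), also overlapping (2234 to 2613 against 1615 to 3530 CPM). Of the 58 markers, 0 had a count of 0 in any library, and their part in the levels of the mitoribosomal genes was not tested.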

How the data were processed

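The deposited table holds raw counts of reads per gene symbol, 1 column per library, made by the authors, and the aligner, counter, annotation and strand setting behind it are not given here by any source. Reads of overlapping and antisense genes may thus be mixed. Per the submitters' processing notes, the mouse builds GRCm38 and mm10 were involved, in a role not stated. Names were looked up in RefSeq's gene table for guinea pig, assembly mCavPor4.1, which held 77 of the 78 members, and no positions were taken from it. Library totals were 32309258 to 35430797 counts; 437 lines without a symbol held 0.751% to 1.69% of them and were left out. Columns were assigned by the library names in the labels, and columns outside the series numbered 0. Within a group, pairs of libraries were further apart than counting noise allows: chi-square over its degrees of freedom was 18.1 to 117.

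With filterByExpr (minimum count 10, total 15) 14683 genes were kept, all 78 members among them. Group was the 1 factor of a quasi-likelihood fit (glmQLFit, robust, and glmQLFTest of edgeR 4.0.16, R 4.3.3) on TMM-scaled libraries, with Benjamini-Hochberg adjustment over all genes and a threshold of 0.05. Each standard error is the fold change (log2) over the root of F. The test was checked on simulated data in which 200 genes changed, equally up and down. In the real data 71.9% of genes passed and the TMM factors of the groups did not overlap, a setting that this check did not cover. The members and gene lists were chosen with earlier results of these data known, and lists are described by counts only. Genes named are the 6 lowest and 4 highest fold changes of each subunit (mean of at least 2 CPM), members fixed by role, members that did not pass or whose call changed, and up to 2 genes per direction of each pathway list, with 9 fixed ones. Alternatives were other scalings and filters, DESeq2 1.42.0, limma-voom 3.58.1, a replicate block, 1 surrogate variable (sva 3.50.0), summed lines, and libraries left out. Correlations with protein length and promoter motifs were not run, since no sequences were used here. A gene that the naming rule selects is not reported here.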

Additional observations from a re-analysis of the deposited data

Results flagged for a closer look

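Of 162 sets of 5 libraries examined (each member in each group, and 3 sums), 5 held a library whose gap to its nearest neighbour exceeded Dixon's 95% value of 0.71 of the range; chance flags about 1 in 20. MRPL51 stood at 21.1 CPM in myopia 1, with the next library at 25.1 CPM. MRPL18 stood at 63.0 CPM in control 2, above 48.8 CPM in the next. Mrpl30 reached 22.1 CPM in myopia 2 against 16.8 CPM in the next. Myopia 3 was high for Mrps14 (9.29 CPM, next 8.28 CPM) and for Mrps24 (26.9 CPM, next 22.9 CPM).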

How the results depend on the processing

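Of 55 members lower in myopia 35 stayed lower and past the threshold under all 23 alternatives, as did 5 of the 7 higher ones. Scaling by library totals moved the most: 35 members were then lower and 20 higher, and the members' median was -0.23. The pathway lists had 35 lower and 75 higher genes against 63 and 45 with TMM factors. Of all genes 18.7% were lower and 52% higher with library totals, against 35.1% and 36.9% with TMM factors. The cause was not tested. The sign turned on that scale to 0.021 for MRPL9 and MRPS15, 0.033 for MRPL44, 0.077 for MRPL28, 0.088 for MRPL51, 0.11 for Mrps7, 0.18 for MRPL48, 0.22 for MRPL42, 0.24 for MRPL47, 0.26 for MRPL15, 0.33 for MRPL35, 0.34 for MRPL18 and MRPS21, 0.35 for MRPL49, 0.36 for Mrpl30, 0.17 for MRPS36, 0.37 for MRPS6, MRPS18C and MRPS27, 0.31 for DAP3, 0.14 for Afg3l2 and 0.38 for Nrf1. Nrf1 was 0.006 with upper quartile factors. Relative to the median of all genes, the members' median lay between -0.84 and -0.67 in all settings, a value that a change of scaling factors alone can hardly move. With DESeq2 56 members were lower and 7 higher, against 36.5% and 36.7% of all genes. With 1 surrogate variable the counts were 55 and 7, against 35.8% and 37.3%. Leaving out 1 library gave 53 to 56 lower and 5 to 7 higher members, a median of -0.75 to -0.63, and 59 to 66 lower and 43 to 47 higher pathway genes. Of all genes 32.9% to 35% were lower and 35.4% to 38.3% higher in these fits. MRPS18C ranged from -0.16 to 0.024, the latter without myopia 1, and MRPS30 from -0.007, without myopia 2 or myopia 5, to 0.124.

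Nothing in the labels makes the library numbers a pairing, and the deviations of same-numbered libraries correlated at -0.16 to 0.03. With a replicate block 54 members were lower and 5 higher, against 33.5% and 35.3% of all genes. The members' median was then -0.69 (pathway lists 61 and 44), and MRPL15, MRPL1 and Mrpl50 did not pass. Of 5 control libraries 0 correlated best with their own number. The depth limits MRPS28 and MRPS35 most, the 2 members with under 100 reads in some library.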
